A study of Homo sapiens with 12 samples.

Results

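The transcript levels of 32 genes of the p53 network were followed in HK-2 cells exposed at high dose to the compound that the labels name Nnm. The 32 genes are a list of regulators of p53 and of its direct target genes. Each was read from 1 probe set, the one with the highest mean over 12 arrays among those whose platform annotation names that gene alone. Such a probe set was found for 30 of the 32 genes, out of 19775 genes named in this way on the whole array. The other two, BTG2 and FDXR, were not analysed here. Testing required a log2 value over 4 on 3 or more of the 12 arrays, which 27 of the 32 genes met. EDA2R and SPATA18 were above that level on 0 arrays and SESN3 on 2 arrays.

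HK-2 is an immortalised line of human kidney proximal tubule epithelium. There were 4 groups of 3 biological replicates: cells given the high dose of Nnm for 24 h or for 48 h, and cells given the control vehicle for 24 h or for 48 h. All groups shared 1 medium, a DMEM and Ham's F12 mixture supplemented with insulin, transferrin, selenite, hydrocortisone and EGF. The labels give neither the dose nor the identity of the vehicle, and the name Nnm is used as they give it. HK-2 was made with the E6 and E7 genes of a human papillomavirus, and E6 is known for directing p53 protein to degradation, so the line is a limited model of p53 signalling. The arrays measured transcripts only. The amount or activity of p53 protein was not measured.

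Of 13 proximal tubule markers measured, 2 (PAX8 and CDH6) were above log2 4 on all 12 arrays and 11, LRP2, CUBN and AQP1 among them, on none. All 6 epithelial markers were above it on every array, and all 4 immune and all 5 distal nephron markers measured were above it on none. Of the fibroblast markers 3 of 7 (COL1A1, DCN and LUM) were above it on all arrays, as were 2 of 4 podocyte markers and 0 of 5 endothelial ones. On the first principal component of the tested probe sets, which held 57.4% of the variance, the Nnm arrays numbered 1 and 3 lay at 68.6 to 87.8, the Nnm arrays numbered 2 at -16.1 (24 h) and -19.8 (48 h), and the control arrays at -49.6 to -44.2. The Nnm arrays numbered 2 thus stood nearer to the controls than to the other Nnm arrays. The counts of calls, and the changes of many but not all of the named genes, are given with and without them. The summed log2 level of the proximal tubule markers was 49.3 to 53.3 on the Nnm arrays and 51.2 to 51.6 on the control arrays, and that of the epithelial markers was 61.4 to 64.2 and 62.9 to 66.7. The part of either in the results was not tested.

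The p53 protein is a transcription factor that is kept low by MDM2 and MDM4 and is stabilised when DNA is damaged or when the cell is otherwise stressed. It then activates genes that stop the cell cycle, repair DNA, adjust metabolism or kill the cell, and it also activates its own inhibitors, which closes a feedback loop. In the kidney tubule the pathway is known for its activity after toxic and ischaemic injury. It binds DNA as a tetramer at a pair of similar half-sites, each built around a core of 4 bases (written CAAG, or CATG, or CTAG, or CTTG).

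RefSeq promoter windows of GRCh38.p14, running from 250 bases before to 50 bases after the start site, were found for 26 of the 32 genes (38 windows). The p53 half-site consensus, 10 bases long, reads the same on both strands, so 1 scan covered both. It was matched exactly in 6.63% of all 35116 windows and in 6 of the 38. These 6 belong to 6 genes, AEN, DDB2, FAS, FDXR, RPS27L and SESN1. A pair of half-sites at most 13 bases apart, with at most 2 mismatches outside the cores, was found in 1.46% of all windows. Such a pair was in 3 of the 38 windows, those of AEN, DDB2 and FAS. An exact pair was found in 0.0285% of all windows (10 windows), and DDB2 was the only one of the 26 genes with it. A stretch of each of the 3 windows with a pair, not the whole window, is shown so that the sequence can be set beside the levels given below. Capitals mark the half-sites. They are the plus strand of chr11:47214850-47214999 (DDB2), chr10:88991181-88991378 (FAS) and chr15:88621176-88621364 (AEN).
DDB2: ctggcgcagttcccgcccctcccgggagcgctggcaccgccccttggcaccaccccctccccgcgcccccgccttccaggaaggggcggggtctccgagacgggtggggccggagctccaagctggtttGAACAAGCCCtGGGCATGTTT
FAS: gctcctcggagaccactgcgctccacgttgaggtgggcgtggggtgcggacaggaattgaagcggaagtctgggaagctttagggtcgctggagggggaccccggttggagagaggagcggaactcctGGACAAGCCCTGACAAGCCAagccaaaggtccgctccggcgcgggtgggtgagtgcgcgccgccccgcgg
AEN: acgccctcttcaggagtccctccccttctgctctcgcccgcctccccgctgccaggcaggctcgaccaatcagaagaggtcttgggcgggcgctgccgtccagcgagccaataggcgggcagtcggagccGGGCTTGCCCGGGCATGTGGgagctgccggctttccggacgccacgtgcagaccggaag
The DDB2 pair spans bases 5 to 25 after the start site with 1 base between the half-sites, and the FAS pair spans bases 122 to 103 before it. The AEN pair spans bases 34 to 15 before the start site. A match in a window is a description of its letters and not evidence of binding.

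At 24 h, 3 of the 27 tested genes passed the test (limma, Benjamini-Hochberg adjusted p under 0.05 over all 22829 tested probe sets). PPM1D and DRAM1 rose and TRIAP1 fell. Of all tested probe sets, 7.32% were called higher and 7.42% lower, so the counts of 2 and 1 of 27 lie near or under this background. At 48 h, E2F7, DDB2 and DRAM1 rose and 0 of the 27 fell, against 5.74% called higher and 4.44% called lower among all tested probe sets. The median change of the 27 genes was 0.03 at 24 h and 0.07 at 48 h on the log2 scale, against -0.01 and 0.01 for all tested probe sets. Calls at 24 h thus ran in both directions. In such bulk samples, fewer cells of a kind and less RNA per cell cannot be told apart.

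**Figure D1:**
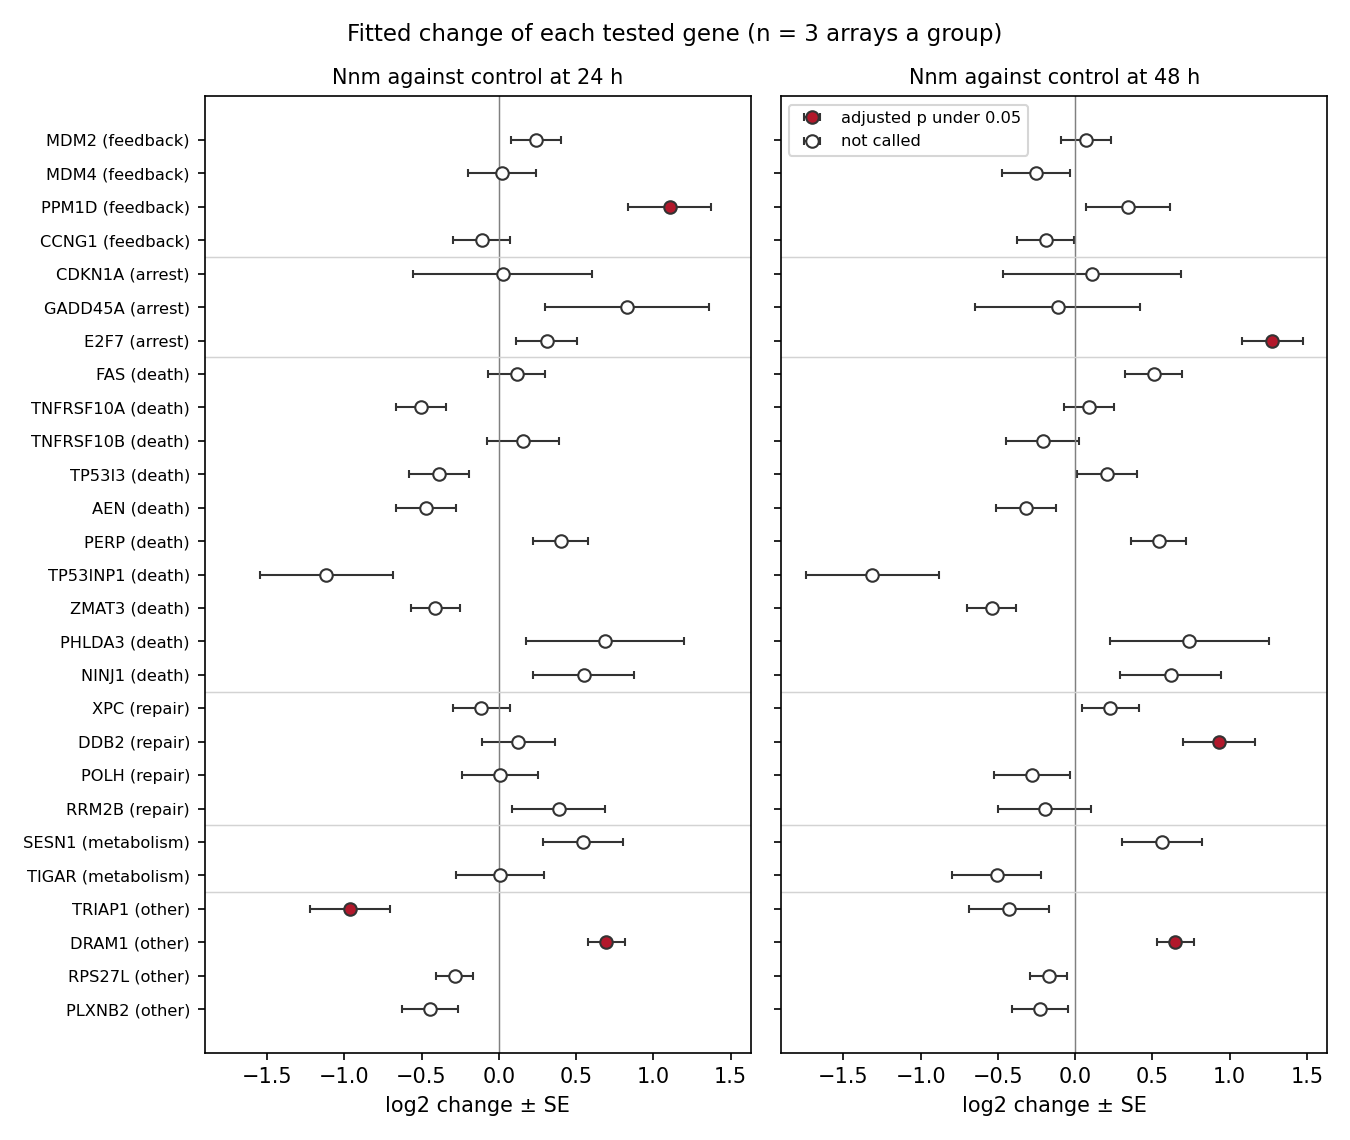
Fitted log2 change with its standard error (x axis) of the 27 tested genes (y axis, grouped by role) for Nnm against control at 24 h (left) and 48 h (right), with 3 arrays a group. Filled points are called at an adjusted p under 0.05: PPM1D, TRIAP1 and DRAM1 at 24 h, and E2F7, DDB2 and DRAM1 at 48 h.

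All 3 Nnm arrays lay above all 3 control arrays at 24 h for 3 of the 27 genes (PPM1D, PERP and DRAM1), against 18.4% of all tested probe sets. They lay below for 5 genes (TNFRSF10A, TP53INP1, TRIAP1, RPS27L and PLXNB2), against 18.9%. At 48 h the counts were 5 genes above (PPM1D, E2F7, PERP, DDB2 and DRAM1), against 18.7%, and 5 genes below (AEN, TP53INP1, ZMAT3, TRIAP1 and RPS27L), against 16.1%. Same-numbered arrays deviated together in all groups, and a fit that blocked all 12 arrays by number called more probe sets, while a block within each time called fewer. With the block over all arrays, 8 of the 27 genes were called at 24 h (3 higher and 5 lower), where 29.3% of all tested probe sets were called, and 7 at 48 h (5 higher and 2 lower), where 22.1% were called. Without the Nnm arrays numbered 2, 16 genes were called at 24 h (11 higher and 5 lower, against 47% of all tested probe sets) and 13 at 48 h (9 higher and 4 lower, against 42.1%). These arrays were left out because they lie near the controls, so the p-values without them do not test the genes. With the block within each time, 1 of the 27 genes was called at 24 h (1 higher and 0 lower). Of all tested probe sets, 10.6% were called. At 48 h that block called 4 genes (3 higher and 1 lower), against 10% of all tested probe sets. Below, the block is the one over all arrays unless the other is named.

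Of the 4 feedback genes, 1 was called at 24 h and 0 at 48 h, against 14.7% and 10.2% of all tested probe sets. At 48 h limma gave 0 of them at an unadjusted p under 0.05 as well, against 30.6%. PPM1D, the phosphatase WIP1 that removes activating phosphates from p53 and its kinases, had log2 levels of 10.82, 9.68 and 10.68 on the Nnm arrays at 24 h, against 9.32, 9.51 and 9.03 on the control arrays. The groups did not overlap, and Nnm array 2 was close to the highest control array. The level rose by 1.11 ± 0.27 (log2, SE, n = 3 a group; limma adjusted p = 0.0285), and by 1.46 without the Nnm arrays numbered 2. At 48 h PPM1D had 10.03, 9.81 and 10.16 on the Nnm arrays and 9.79, 9.72 and 9.46 on the control arrays. The groups again did not overlap, but the difference of 0.34 was not called (adjusted p = 0.418). The call at 24 h was lost when Nnm array 1 or 3 or control array 1 or 3 was left out, with changes of 0.89, 0.96, 1.12 and 0.98.

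MDM2, the ubiquitin ligase that targets p53, had log2 levels of 9.27, 8.58 and 9.03 on the Nnm arrays at 24 h and 8.72, 8.74 and 8.68 on the control arrays. Nnm arrays 1 and 3 were above every control array and Nnm array 2 was below every one. The difference was 0.24 (adjusted p = 0.304), and 0.43 without the Nnm arrays numbered 2. At 48 h it was 0.07 (adjusted p = 0.809), and 0.05 without them. The other tested probe sets of MDM2 differed by -0.02 and 0.09 at 24 h and by 0.06 and -0.02 at 48 h. MDM4, which binds and inhibits p53, differed by 0.02 at 24 h and -0.25 at 48 h, and CCNG1 (cyclin G1, which recruits a phosphatase to MDM2) by -0.11 and -0.19, with adjusted p-values of 0.465 or more. The other tested probe sets of MDM4 differed by 0.18, 0.14 and -0.21 at 24 h. At 48 h they differed by -0.39, -0.80 and 0.29. MDM4 differed by -0.09 and -0.51 without the Nnm arrays numbered 2. CCNG1 had the highest mean of the 30 probe sets, log2 12.84, although levels of different probe sets cannot be compared as amounts.

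Of the 3 arrest genes tested, 0 were called at 24 h, also at an unadjusted p under 0.05 in limma, and 1 rose at 48 h. Of all tested probe sets, 14.7% were called at 24 h and 35.8% had such an unadjusted p. At 48 h 5.74% were called higher. E2F7, an atypical E2F that represses cell cycle genes, had log2 levels of 9.34, 9.05 and 9.83 on the Nnm arrays at 48 h, against 8.00, 8.28 and 8.11 on the control arrays. Every Nnm array was above every control array, by at least 0.77 between same-numbered arrays. E2F7 rose by 1.28 ± 0.20 (SE; adjusted p = 0.00871), and it kept its call when any single array of the compared groups was left out. At 24 h its levels were 8.85, 9.24 and 9.26 on the Nnm arrays and 8.81, 8.74 and 8.88 on the control arrays, which overlapped (difference 0.31, adjusted p = 0.280). The Nnm group means were 9.12 at 24 h and 9.41 at 48 h, and the control means were 8.81 and 8.13. The Nnm effect at 48 h exceeded that at 24 h by 0.97 (unadjusted p = 0.0056, adjusted p = 0.780).

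CDKN1A encodes p21, the inhibitor of cyclin-dependent kinases through which p53 halts the cycle, and it is described in full after its values were seen. Its log2 levels at 24 h were 10.23, 8.41 and 10.18 on the Nnm arrays and 9.63, 9.41 and 9.71 on the control arrays. At 48 h they were 10.13, 8.18 and 10.13 on the Nnm arrays and 9.65, 8.89 and 9.58 on the control arrays. At both times Nnm arrays 1 and 3 were above all control arrays and Nnm array 2 was below all of them. The fitted differences were 0.03 ± 0.58 at 24 h and 0.11 ± 0.58 at 48 h (adjusted p = 0.981 and 0.921), and without the Nnm arrays numbered 2 they were 0.62 and 0.76.

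GADD45A, a stress protein that binds PCNA and p21, was also chosen after its values were seen. It had 10.62, 8.62 and 10.63 on the Nnm arrays at 24 h and 9.13, 9.01 and 9.23 on the control arrays. Nnm arrays 1 and 3 were thus over 1.3 above the highest control array, and Nnm array 2 was below the lowest. The difference was 0.83 ± 0.53 (adjusted p = 0.284), and 1.50 without the Nnm arrays numbered 2. At 48 h the levels were 9.71, 8.28 and 9.68 on the Nnm arrays and 9.64, 8.97 and 9.40 on the control arrays, a difference of -0.11 (adjusted p = 0.908). Its sign turned without the Nnm arrays numbered 2, to 0.36.

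**Figure D2:**
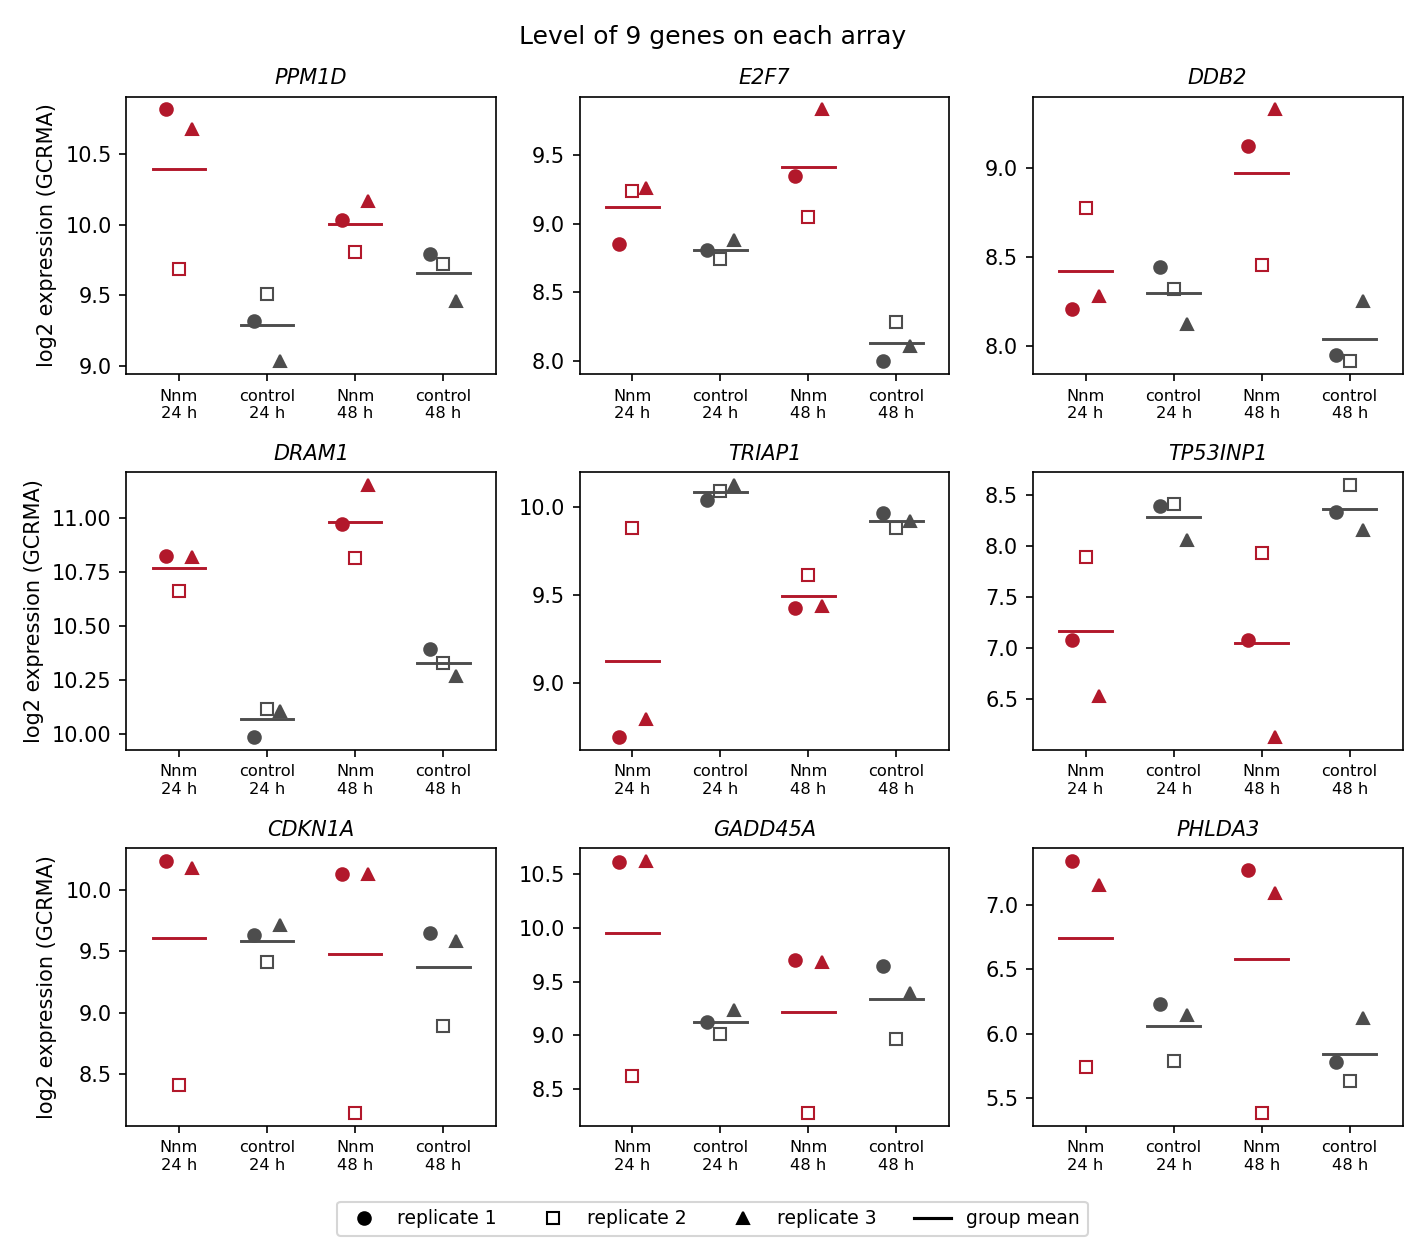
GCRMA log2 level (y axes, a scale of their own for each gene) of 9 genes on each of the 12 arrays, by group (x axes); symbols mark the replicate number and lines the group means. Open squares are replicate 2 in all groups. In CDKN1A, GADD45A and PHLDA3 those of the Nnm groups lie below the lowest control array at both times. In PHLDA3 at 24 h the gap is small (5.74 against 5.79). Nnm replicates 1 and 3 of these genes lie above the highest control array at both times. DRAM1 is higher on every Nnm array than on any control array of its time.

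None of the 10 death genes tested was called at either time by limma, against 14.7% and 10.2% of all tested probe sets. At an unadjusted p under 0.05 there were 5 at 24 h and 4 at 48 h, against 35.8% and 30.6%. TP53INP1, a stress protein that takes part in apoptosis and autophagy, had the lowest change of the 27 genes at both times. Its log2 levels were 7.08, 7.89 and 6.53 on the Nnm arrays at 24 h and 8.40, 8.41 and 8.06 on the control arrays. At 48 h they were 7.08, 7.93 and 6.13 on the Nnm arrays and 8.33, 8.60 and 8.16 on the control arrays. Every Nnm array was below every control array at both times, with Nnm array 2 nearest to the controls. The differences were -1.12 ± 0.43 (adjusted p = 0.0953; 0.0208 with the replicate block) and -1.31 ± 0.43 (adjusted p = 0.0743; 0.0148 with the block). They were -1.48 and -1.76 without the Nnm arrays numbered 2.

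ZMAT3, an RNA-binding zinc finger protein, was lower on the Nnm array of every replicate number at both times. Its differences were -0.41 at 24 h (adjusted p = 0.0949; 0.0446 with the block) and -0.54 at 48 h (adjusted p = 0.0542; 0.0234 with the block). All 5 of its tested probe sets were lower in Nnm cells at both times, and 1 of them fell by 0.53 at 24 h (adjusted p = 0.0482) and by 0.76 at 48 h (adjusted p = 0.0207). AEN, a nuclease that is named for enhancing apoptosis, differed by -0.47 at 24 h (adjusted p = 0.111) and -0.32 at 48 h (adjusted p = 0.295). With the block the limma adjusted p-values of AEN were 0.0563 and 0.181. The promoter window of AEN printed above holds a near match to the p53 consensus, and its level was lower in Nnm cells in all 3 replicates at both times.

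PHLDA3, an inhibitor of AKT signalling, was chosen after its values were seen. Its log2 levels were 7.34, 5.74 and 7.15 on the Nnm arrays at 24 h and 6.23, 5.79 and 6.15 on the control arrays. At 48 h they were 7.27, 5.38 and 7.10 on the Nnm arrays and 5.78, 5.63 and 6.12 on the control arrays. As for CDKN1A, Nnm array 2 lay below the controls and the other two Nnm arrays lay above them. The differences were 0.69 and 0.74 (adjusted p = 0.359 and 0.354), and 1.19 and 1.34 without the Nnm arrays numbered 2.

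NINJ1, a membrane protein of plasma membrane rupture in dying cells, was higher on the Nnm array of every replicate number at both times, by 0.55 at 24 h (adjusted p = 0.250; 0.0252 with the block) and 0.62 at 48 h (adjusted p = 0.227; 0.0201 with the block). Leaving out the Nnm arrays numbered 2 gave 0.88 and 0.89. PERP, a desmosomal membrane protein, was higher on every Nnm array than on any control array at both times. It differed by 0.40 at 24 h (adjusted p = 0.132, and 0.0618 with the block). At 48 h it differed by 0.54 (adjusted p = 0.0746, and 0.0311 with the block). Its probe set is of a type that may cross-hybridise, and its second probe set differed by 0.39 and 0.76.

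None of the 3 death receptors tested was called at either time, against 14.7% and 10.2% of all tested probe sets. FAS, the receptor of FAS ligand, differed by 0.12 at 24 h and 0.51 at 48 h (adjusted p = 0.691 and 0.0989). Its other tested probe sets differed by -0.22, 0.11 and 0.18 at 24 h and by 0.10, 0.52 and 0.64 at 48 h. FAS differed by 0.06 and 0.70 without the Nnm arrays numbered 2. At 48 h it had 11.21, 10.82 and 11.58 on the Nnm arrays and 10.52, 10.71 and 10.86 on the control arrays, and the groups overlapped. TNFRSF10A, a receptor of the ligand TRAIL, differed by -0.51 at 24 h (adjusted p = 0.0588; 0.0468 with the block) and 0.09 at 48 h (adjusted p = 0.744). Its second tested probe set differed by 0.04 at 24 h and 0.69 at 48 h. TNFRSF10B, the other TRAIL receptor among these genes, differed by 0.16 and -0.21, and TP53I3, a quinone oxidoreductase linked to oxidative stress, by -0.39 and 0.21. TNFRSF10B differed by 0.44 and -0.06, and TP53I3 by -0.63 and 0.18, without the Nnm arrays numbered 2. EDA2R, a receptor of an ectodysplasin, stayed between log2 1.99 and 2.02 on all 12 arrays.

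Of the 4 DNA repair genes, 0 were called at 24 h, also at an unadjusted p under 0.05 in limma, and DDB2 rose at 48 h. Of all tested probe sets, 14.7% were called at 24 h and 35.8% had such an unadjusted p. At 48 h 5.74% were called higher. DDB2 recognises ultraviolet lesions in nucleotide excision repair, and its promoter window printed above holds the exact pair of p53 half-sites. Its log2 levels at 48 h were 9.12, 8.45 and 9.33 on the Nnm arrays and 7.95, 7.91 and 8.25 on the control arrays. The groups did not overlap, and the change was 0.93 ± 0.24 (adjusted p = 0.0361). At 24 h they were 8.21, 8.78 and 8.28 on the Nnm arrays and 8.45, 8.32 and 8.12 on the control arrays, where Nnm array 2 was the highest of the 6 (difference 0.12, adjusted p = 0.739). DDB2 differed by 1.19 at 48 h and -0.05 at 24 h without the Nnm arrays numbered 2. The call at 48 h was lost when any array of the compared groups other than Nnm array 2 was left out, with changes of 0.75 to 1.04.

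XPC, which starts global nucleotide excision repair, differed by -0.11 at 24 h and 0.23 at 48 h. POLH, the polymerase that copies past ultraviolet lesions, differed by 0.01 and -0.28. Its probe set, like that of PERP, is of a type that may cross-hybridise. The other 3 tested probe sets of POLH differed by -0.47 to -0.56 at 24 h (limma adjusted p = 0.103 to 0.377). RRM2B, a ribonucleotide reductase subunit that supplies nucleotides for repair, had 8.91, 7.66 and 8.93 on the Nnm arrays at 24 h and 8.04, 8.04 and 8.24 on the control arrays. This is again Nnm arrays 1 and 3 above the controls and Nnm array 2 below them. The difference was 0.39 (adjusted p = 0.379), and -0.20 at 48 h (adjusted p = 0.691). These were 0.81 and -0.07 without the Nnm arrays numbered 2.

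Of the metabolic genes, 2 were tested and 0 were called at either time, also at an unadjusted p under 0.05 in limma. Of all tested probe sets, 14.7% at 24 h and 10.2% at 48 h were called. Such an unadjusted p was found for 35.8% and 30.6%. SESN1, a sestrin that restrains mTORC1 signalling, differed by 0.54 at 24 h and 0.56 at 48 h (adjusted p = 0.157 and 0.170). TIGAR, which lowers the level of a glycolytic activator, differed by 0.01 and -0.51 (adjusted p = 0.985 and 0.254). Without the Nnm arrays numbered 2 the differences were 0.81 and 0.75 for SESN1 and 0.36 and -0.43 for TIGAR. SESN3, another sestrin, was too low to be tested. Its log2 values were 4.52, 2.92 and 4.83 on the Nnm arrays at 24 h and 2.89, 2.93 and 2.94 on the control arrays. Nnm arrays 1 and 3 were above the filter level and Nnm array 2 was at the control level. At 48 h its values were 2.92, 2.95 and 2.94 on the Nnm arrays and 2.92, 2.94 and 2.91 on the control arrays.

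The remaining genes held the gene called at both times. DRAM1, a lysosomal membrane protein that promotes autophagy, had log2 levels of 10.82, 10.66 and 10.82 on the Nnm arrays at 24 h, against 9.99, 10.12 and 10.11 on the control arrays. At 48 h it had 10.97, 10.81 and 11.15 on the Nnm arrays, against 10.39, 10.33 and 10.27 on the control arrays. All 3 Nnm arrays were above all 3 control arrays at each time, Nnm array 2 included. DRAM1 rose by 0.70 ± 0.12 at 24 h (adjusted p = 0.0125) and by 0.65 ± 0.12 at 48 h (adjusted p = 0.0152). At both times the call was lost when Nnm array 1 or 3 or control array 1 or 3 was left out, while the change stayed between 0.56 and 0.71.

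TRIAP1, a small mitochondrial protein that protects against apoptosis, had 8.69, 9.88 and 8.80 on the Nnm arrays at 24 h, against 10.04, 10.09 and 10.13 on the control arrays. Nnm array 2 lay just below the controls and the other two Nnm arrays more than 1.2 below them. TRIAP1 fell by 0.96 on the log2 scale (SE 0.26, adjusted p = 0.0358), and by 1.34 without the Nnm arrays numbered 2. The call was lost when any array of the compared groups other than Nnm array 2 was left out, with changes of -0.99 to -0.75. At 48 h the levels were 9.43, 9.62 and 9.44 on the Nnm arrays and 9.97, 9.88 and 9.92 on the control arrays, again without overlap (difference -0.43, adjusted p = 0.284).

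RPS27L, a close relative of a ribosomal protein, differed by -0.29 at 24 h and -0.17 at 48 h (adjusted p = 0.115 and 0.357) and was lower on every Nnm array than on any control array at both times. Its other tested probe sets, 2 in all, were called lower at 24 h, with falls of 0.46 (adjusted p = 0.0417) and 1.72 (adjusted p = 0.0240). Their mean log2 levels were low, 6.97 and 5.31, against 11.91 for the probe set used. PLXNB2, a semaphorin receptor, differed by -0.45 at 24 h (adjusted p = 0.109, and 0.0469 with the block). At 48 h it differed by -0.23 (adjusted p = 0.423, and 0.267 with the block). SPATA18, which takes part in mitochondrial quality control, stayed at log2 2.58 to 2.65 on all 12 arrays.

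Same-numbered arrays were also compared directly. In 5 of the 27 genes at 24 h (18.5%) the Nnm array was higher in all 3 replicates and in 7 (25.9%) it was lower in all 3, against 28.9% and 29.7% of all tested probe sets. At 48 h these counts were 9 (33.3%) and 8 (29.6%), against 30.8% and 28.7%. In 11 genes at 24 h (40.7%) replicates 1 and 3 shared a sign and replicate 2 had the other, against 27.5% of all tested probe sets. At 48 h there were 6 such genes (22.2%), against 22.4%. The genes with a difference of at least 0.5 in the same direction in all 3 replicates were TP53INP1 and DRAM1 at 24 h and TP53INP1, E2F7 and DDB2 at 48 h. The arrest genes had median differences of 0.61, -0.39 and 0.47 in replicates 1, 2 and 3 at 24 h, and 0.48, -0.69 and 0.55 at 48 h. For the death genes the medians were -0.08, -0.16 and -0.12 at 24 h and 0.27, -0.29 and 0.33 at 48 h. These are descriptions of 3 and 10 genes, and the differences between roles were not tested.

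**Figure D3:**
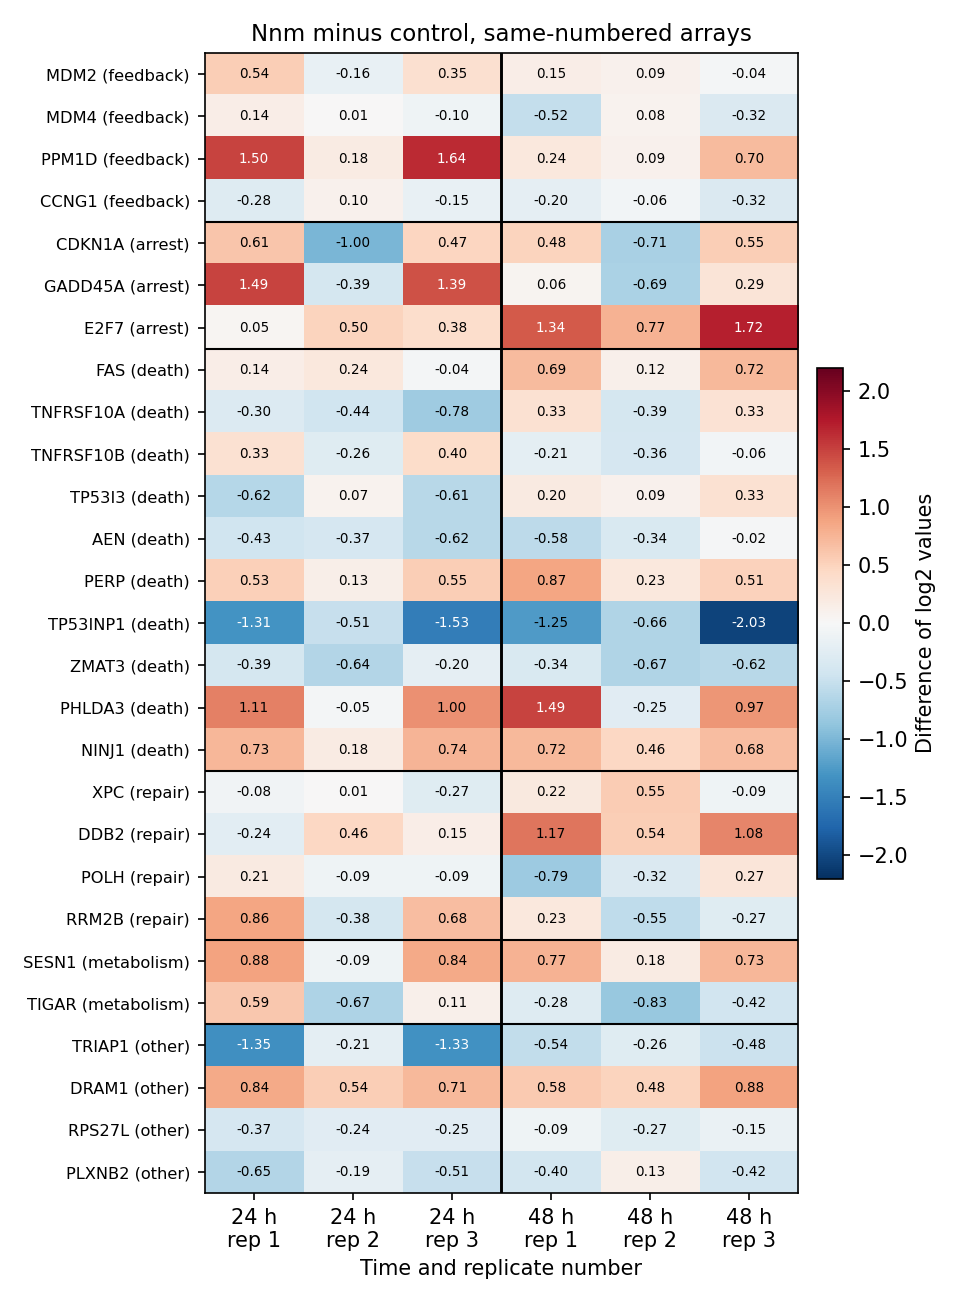
Nnm minus control log2 level between arrays of the same replicate number (columns, 24 h left and 48 h right) for the 27 tested genes (rows, grouped by role); red is higher and blue lower in Nnm cells. TP53INP1, ZMAT3 and TRIAP1 are negative and DRAM1 and NINJ1 positive in all 6 columns, while CDKN1A and GADD45A are negative in replicate 2 alone.

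**Figure D4:**
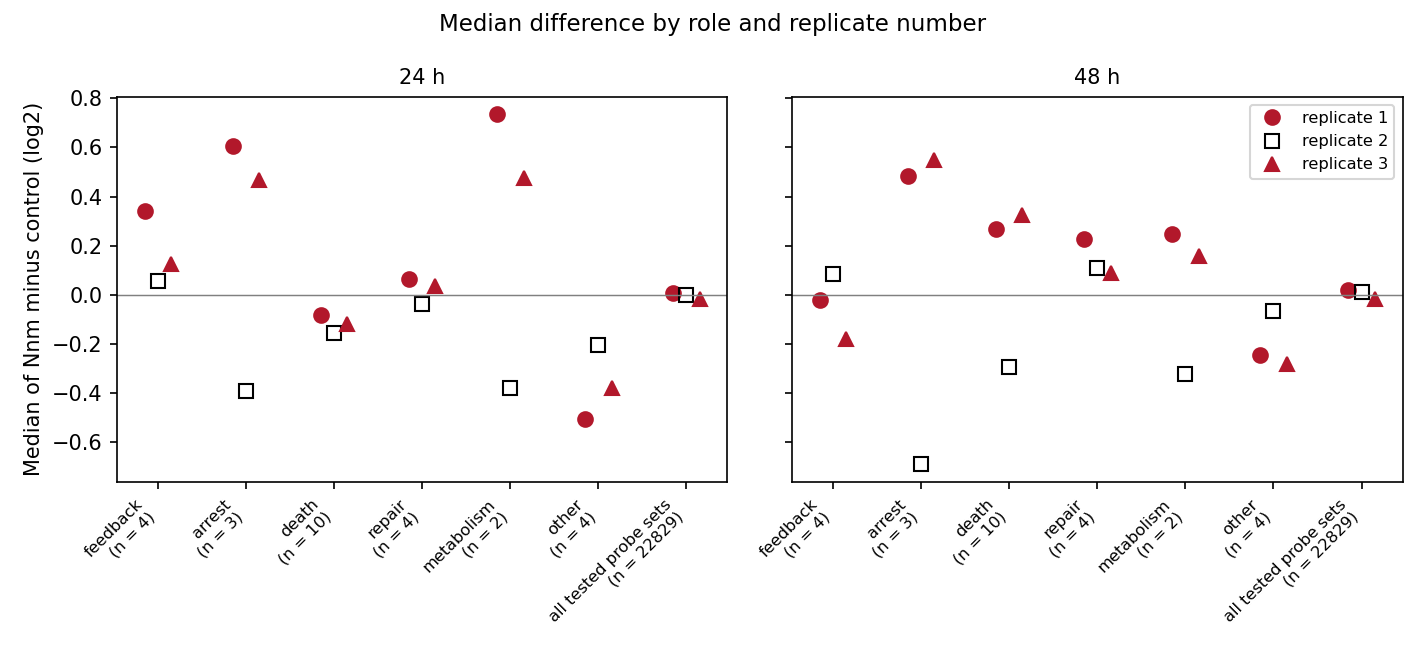
Median Nnm minus control difference (y axis, log2) over the tested genes of each role (x axis, with the number of genes) and over all 22829 tested probe sets, for each replicate number at 24 h (left) and 48 h (right). In the arrest genes replicate 2 lies at -0.39 and -0.69 while replicates 1 and 3 lie between 0.47 and 0.61.

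Several genes had over 1 tested probe set, 11 of the 27 in all. Their signs were the same within a gene for 5 of the 11 genes at 24 h (PPM1D, E2F7, PERP, ZMAT3 and RPS27L) and for 9 of the 11 at 48 h. The second probe sets of PPM1D and E2F7, at low mean levels of 4.45 and 4.50, differed little: PPM1D by 0.15 at 24 h and E2F7 by 0.11 at 48 h. The calls of those genes thus rest on 1 probe set each. DRAM1, DDB2 and TRIAP1 each had 1 tested probe set.

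**Figure D5:**
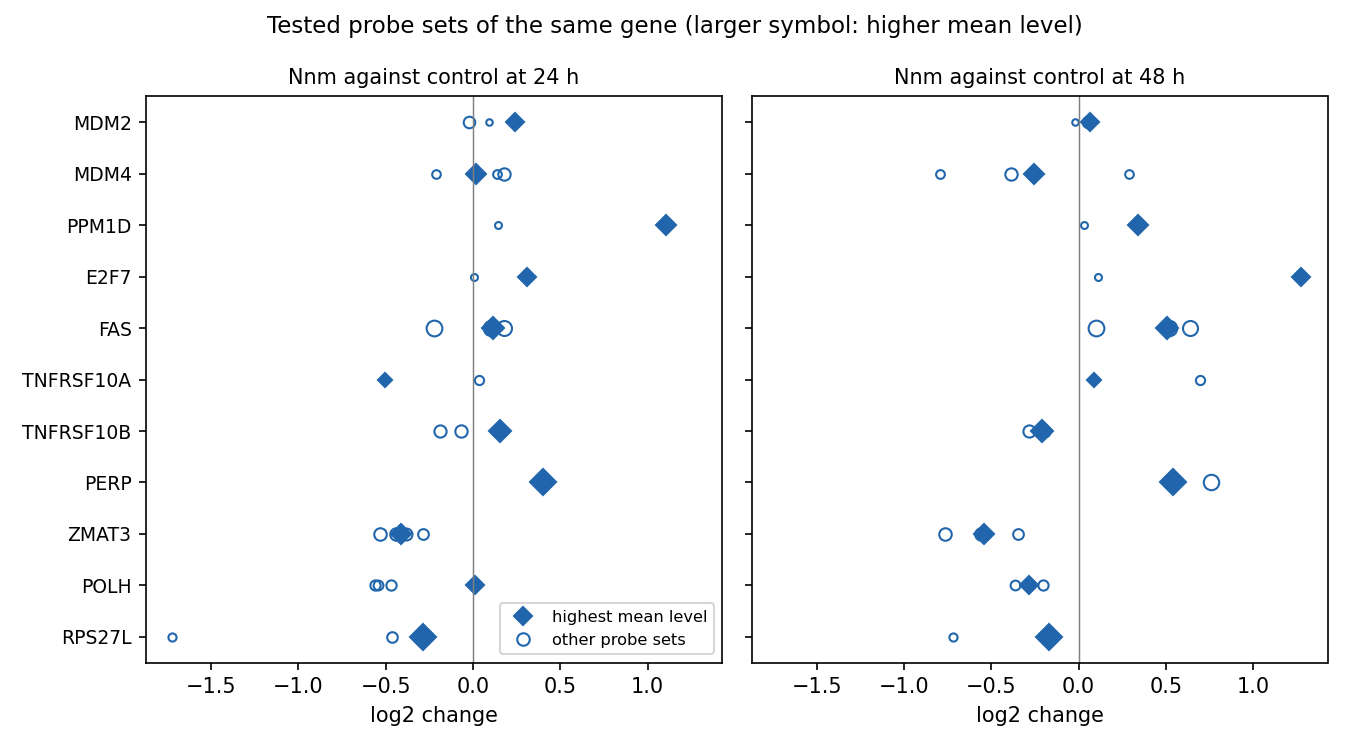
Fitted log2 change (x axis) of each tested probe set of the 11 genes with over 1 (y axis), for Nnm against control at 24 h (left) and 48 h (right). Diamonds are the probe sets with the highest mean level and symbol size follows the mean level; all 5 of ZMAT3 and all 3 of RPS27L lie below 0 at both times.

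The effect of Nnm at 48 h was compared with that at 24 h, and each treatment was compared between times. None of the 22829 tested probe sets was called by limma in any of these comparisons (0%); with the replicate block 12 were called in control cells, none of them among the 27 genes. At an unadjusted p under 0.05, 3 of the 27 genes differed in the Nnm effect (E2F7, TNFRSF10A and DDB2), against 6.21% of all tested probe sets. Between 48 h and 24 h, 2 did so in Nnm cells (DDB2 and TIGAR), against 13.7%, and 3 in control cells (CCNG1, E2F7 and TP53I3), against 8.04%. TIGAR was 0.99 lower in Nnm cells at 48 h, with group means of 8.58 at 48 h and 9.58 at 24 h (adjusted p = 0.235). The Nnm effects at 24 h and 48 h are thus not shown to differ for any of the 27 genes.

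Other genes of the pathway were counted in 3 lists. Of 20 upstream regulators and partners of p53, 19 were tested, with a median change of 0.15 at 24 h and 0.09 at 48 h. At 24 h, 3 rose and 1 fell, against 7.32% and 7.42% of all tested probe sets. With the replicate block 3 were called higher and 3 lower, against 29.3% of all tested probe sets in either direction. Without the Nnm arrays numbered 2, where 47% of all tested probe sets were called at 24 h and 42.1% at 48 h, the counts were 4 higher and 2 lower at 24 h and 6 higher and 3 lower at 48 h. SIRT1, a deacetylase that acts on p53, rose by 0.91 (adjusted p = 0.0346), with means of 9.97 in Nnm cells and 9.06 in control cells. CREBBP, an acetyltransferase coactivator, rose by 0.81 (adjusted p = 0.046) and RCHY1, a ubiquitin ligase of p53, by 0.58 (adjusted p = 0.0285). ATR, a kinase of the DNA damage checkpoint, averaged 9.05 in Nnm cells and 10.21 in control cells, and fell by 1.16 (adjusted p = 0.0403). It fell by 1.58 without the Nnm arrays numbered 2. At 48 h, CHEK1, the checkpoint kinase downstream of ATR, rose by 0.72 (adjusted p = 0.0401) and 0 of the 19 fell, against 5.74% and 4.44% of all tested probe sets, and RCHY1 differed by 0.48 (adjusted p = 0.0560; 0.0324 with the block). With the block, 3 genes of this list were called higher and 1 lower at 48 h, against 22.1% of all tested probe sets in either direction.

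Of 30 further p53 target genes, 25 were tested, with a median change of 0.18 at 24 h and 0.23 at 48 h; 1 rose and 4 fell at 24 h, and 0 rose and 2 fell at 48 h. Among all tested probe sets 7.32% rose and 7.42% fell at 24 h, and 5.74% rose and 4.44% fell at 48 h. ANKRA2, an ankyrin repeat protein, averaged 8.64 in Nnm cells and 6.55 in control cells at 24 h and rose by 2.08 (adjusted p = 0.0176). PLK2, a polo-like kinase, fell by 2.72 at 24 h (adjusted p = 0.019). SFN, a 14-3-3 protein that holds cells before mitosis, fell by 1.67 at 24 h (adjusted p = 0.0173) and by 1.31 at 48 h (adjusted p = 0.0377). Without the Nnm arrays numbered 2, the changes at 24 h were 2.51 for ANKRA2, -3.47 for PLK2 and -2.14 for SFN. TGFA, a ligand of the EGF receptor, fell by 0.87 at 24 h (adjusted p = 0.0114) and by 0.66 at 48 h (adjusted p = 0.0226). Counts with the replicate block were 3 higher and 4 lower at each time. Of all tested probe sets, 29.3% at 24 h and 22.1% at 48 h were called in either direction with the block. Without the Nnm arrays numbered 2 the counts were 9 higher and 9 lower at 24 h, and 11 higher and 5 lower at 48 h. Of all tested probe sets, 47% were called at 24 h and 42.1% at 48 h without these arrays. The p-values without them do not test the genes.

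All 24 cell cycle genes that are repressed when p21 is active were tested. At 24 h, 1 rose and 1 fell: NEK2, a centrosomal kinase, by 1.00 (adjusted p = 0.0446), and BUB1B, a spindle checkpoint kinase, by 0.59 in the other direction (adjusted p = 0.0379). Among all tested probe sets 7.32% rose and 7.42% fell at 24 h. At 48 h 0 of the 24 were called by limma, against 5.74% called higher and 4.44% called lower among all tested probe sets. At an unadjusted p under 0.05 there were 3, against 30.6%. With the replicate block 2 were called higher and 0 lower, against 22.1% called in either direction. AURKA, a mitotic kinase, averaged 10.59 in Nnm cells and 11.40 in control cells (adjusted p = 0.124). PRC1, a spindle midzone protein, averaged 9.85 and 10.70 (adjusted p = 0.129). MYBL2 went the other way, with 9.76 and 8.99 (adjusted p = 0.145, and 0.00902 with the block). CDC25A was also called higher with the block and differed by 0.56 (adjusted p = 0.189, and 0.0307 with the block). The median change of the list was -0.07 at 24 h and -0.03 at 48 h. Without the Nnm arrays numbered 2, 2 were called higher and 2 lower at 24 h, and 2 higher and 7 lower at 48 h, shares that lie under the 47% and 42.1% called among all tested probe sets.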

How the data were processed

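RNA of 12 HK-2 cultures was measured on Affymetrix arrays. The deposited values are log2 levels, 1 for each probe set on each array; the authors used GCRMA, per the submitters' processing notes (no version given), which subtracts a sequence-based background, brings arrays to a common distribution and summarises each probe set, so a shift of most genes together would be hidden. Array medians were 2.91 to 2.98. Of 54675 probe sets, 62 controls were left out, and 22829 were tested (log2 above 4 on at least 3 arrays). Of all probe sets, 41097 named 1 gene, 1801 several and 11777 none. All 12 arrays entered 1 limma 3.58.1 model (R 4.3.3; lmFit, contrasts.fit, eBayes) of 4 groups with 8 residual degrees of freedom, and p-values were Benjamini-Hochberg adjusted over all tested probe sets and called under 0.05. The script was tested on simulated data. The number of arrays limits the precision, and standard errors use the moderated spread of the model.

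Deviations from the group means correlated at 0.16 to 0.67 in all 18 pairs of same-numbered arrays (median -0.21 over the 36 other pairs), so the numbers pair the samples by this check, although no label says what they share. The fit with the number as a block is an alternative. Others changed the filter, variance model, array weights, normalization, probe set and arrays. Genes called in any comparison or with group means at least 1 log2 apart were given on every array; from the other lists up to 4 called genes with the largest change were named, or, under 2 calls, also the 2 with the smallest p. MYBL2 and CDC25A were named outside this rule, because the replicate block called them. Also outside it, MDM2, RRM2B, FAS, CDKN1A, GADD45A and PHLDA3 were given on single arrays. The main fit did not call them, and their Nnm and control means were under 1 log2 apart. Members and lists were chosen with earlier results of these data known.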

Additional observations from a re-analysis of the deposited data

How the results depend on the processing

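The number of the 27 genes called at 24 h, 3, became 1 with no filter on low values, 8 with the replicate block over all arrays, 1 with the replicate block within each time, 0 with only the arrays compared, 17 with array weights and 16 without the Nnm arrays numbered 2. Leaving out 1 array gave 0 to 12: 0 without Nnm array 1 or 3 or control array 1 or 3, and 12 without Nnm array 2. At 48 h the 3 calls became 7 with the replicate block over all arrays, 0 with only the arrays compared, 15 with array weights and 13 without the Nnm arrays numbered 2. Leaving out 1 array gave 1 to 7: 1 without Nnm array 1 or 3 or control array 1 or 3, and 7 without Nnm array 2. The 0 genes whose Nnm effect differed between times became 8 with array weights, 8 without the Nnm arrays numbered 2 and up to 4 with 1 array left out (0 to 4). Those between times in Nnm cells became 12, 8 and up to 5 (0 to 5), and in control cells 0 were called under every alternative run. Without the Nnm arrays numbered 2, 2556 of all 22829 tested probe sets were called for the Nnm effect between times. For Nnm cells between times 4985 were called. With array weights or 1 array left out, all probe sets were not counted for these comparisons. The block within each time gives no value for comparisons between times. Fits without 1 array share the spread over all groups. Apart from fewer arrays or another set of tested probe sets, the cause was not tested. Over all 22829 tested probe sets, 3366 were called at 24 h and 2323 at 48 h; these counts were 6700 and 5046 with the replicate block, 112 and 115 with only the arrays compared, 12093 and 11202 with array weights, 10730 and 9605 without the Nnm arrays numbered 2, and 848 and 842 of 54613 with no filter. Of 482 single-gene values at each time, 0 called ones reversed. At 24 h 416 stayed on their side of the threshold, 21 lost and 45 gained a call; at 48 h 432 stayed, 14 lost and 36 gained one. The replicate block over all arrays kept all 3 calls at each time.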
